A study of Mus musculus with 4 samples.

Results

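Kinesins are motor proteins that use ATP to move along microtubules. In male germ cells they build the meiotic spindle, act in cytokinesis, carry cargo, and drive intraflagellar transport, the traffic of building blocks along cilia and the sperm tail. Most walk toward the plus end of the microtubule, the kinesin-14 motors walk toward the minus end, and the kinesin-13 motors take microtubule ends apart instead of walking.

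The kinesin set was made of every row of the deposited expression table whose symbol is Kif followed by a number or Kifc followed by a number. This rule uses names only and gave 43 of 24426 rows. Of these, 41 are genes of the kinesin families and are called motor genes here, Kif26a included, whose product lacks motor activity. The other 2 are not motors. Kif1bp is the kinesin binding protein gene that RefSeq now calls Kifbp. Kif16bos is a long noncoding RNA on the strand opposite to Kif16b, and its start lies 1356 bases from that of Kif16b. The study's own filter, a level of 0.5 FPKM in any of the libraries, was passed by 41 of the 43 rows, 39 of them motors. Kif12 was listed at 0 in every library, and Kif26b lay between 0.0898 and 0.190 FPKM.

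RNA was measured in spermatogenic cells of male C57BL/6 mice with no genetic change or treatment stated, 1 library for each of 4 stages. The study states that spermatogonia (SG) came from 30 pooled mice of 7 days. Spermatocytes at preleptotene (PlpSC), at leptotene or zygotene (L/ZSC) and at pachytene (PaSC) are stated to come from 5 mice of 17 days. On that account these 3 libraries share their animals. Age and animals then cannot be told apart from stage between SG and the rest. Sertoli cells were first allowed to stick to the dish, and the rest were separated by gravity sedimentation. Values are FPKM, fragments counted per transcript length and per size of the library, which allows genes to be compared within a library. With 1 library per stage there is no replicate, no SD and no test, and every ratio below compares 2 libraries and not 2 stages.

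The labels of the columns were checked before use, and the markers go against some of them. Ldhc, a lactate dehydrogenase gene switched on in pachytene cells, stood at 3409 FPKM in the library labelled SG. As deposited, 5 of 6 spermatogonial markers were highest in the library labelled PlpSC, but with every library scaled to a common sum 2 were. The 5 include Stra8, which the study uses as a marker of meiosis initiation. Across lncRNAs, the column labelled SG runs in a fixed proportion to what the study lists elsewhere for PaSC, while the column labelled PlpSC is identical to its namesake there. The columns labelled L/ZSC and PaSC matched no column there. The SD of their log2 ratios was at least 0.791 for labelled L/ZSC and at least 1.40 for labelled PaSC. For these reasons a column is named below only by its label, and the doubt extends to the age and animals stated for each label. All 6 spermatid markers were highest in labelled PaSC (summed level 11499 FPKM against 9.24 to 88.7 elsewhere). All 6 macrophage markers and all 6 fibroblast and peritubular markers were highest in labelled PlpSC (394 and 753 FPKM, against 8.79 to 23.9 and 9.63 to 49.4), and all 6 Sertoli markers were highest in labelled SG (1301 FPKM, and 640, 341 and 95.7 in labelled PlpSC, L/ZSC and PaSC). No marker of any list was at 0. In bulk RNA, fewer cells of a type and less RNA per cell cannot be told apart.

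The scale of the libraries also differs. The FPKM of all genes summed to 2571630 in labelled PlpSC and to 858436 to 1117540 in the other libraries, and 10 genes held 68.1% of the sum in labelled PlpSC against 23.8% to 42.8%. A ratio between libraries therefore depends on how they are scaled, and 3 scalings were compared: the values as deposited, a common sum for every library, and the median of ratios over genes above 1 FPKM everywhere. Same-sum scaling moved the median log2 difference of all genes from labelled SG to labelled PlpSC from 0 to -1.04. Shares and ratios inside a library do not depend on the scaling, and the shares of the roles are given first.

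Values below are given in the order of the labels SG, PlpSC, L/ZSC and PaSC unless stated otherwise. Summed over the 41 motor genes, the levels as deposited were 640, 481, 716 and 1023 FPKM, and the median motor gene lay between 10.1 and 11.5 FPKM in all 4. Both measures move with the scaling. The shares of the roles in that sum differed between the libraries. Motors of the cilium and flagellum made up 38.3%, 16.6%, 47.8% and 43.6% of the motor sum. Spindle and chromosome motors took 26.0%, 34.2%, 25.7% and 38.8%, and Kif2b alone held 19.7% of the motor sum in labelled PaSC. Cytokinesis motors took 12.8%, 16.2%, 12.4% and 7.80%. Cargo transport motors took 22.2%, 31.8%, 13.8% and 9.72%. The library labelled PlpSC was the only one in which cargo motors outweighed those of the cilium and flagellum, and Kif9, Kif3b, Kif27 and Kif2b together held 50.9% of the motor sum in labelled PaSC against 7.83% in labelled PlpSC.

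**Figure D1:**
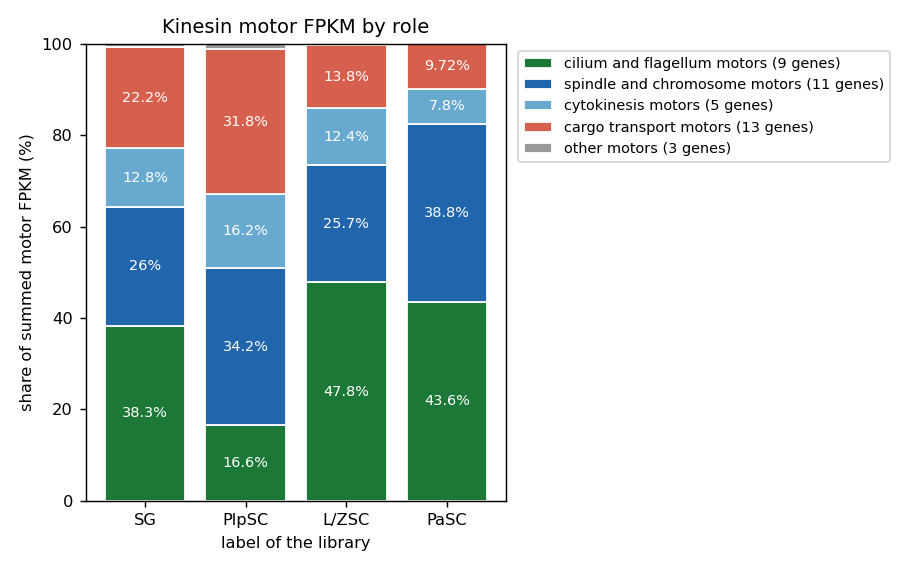
Share of the summed FPKM of 41 kinesin motor genes (vertical axis, %) held by each role in the 4 libraries (horizontal axis, by label, 1 library each). The cilium and flagellum share is 16.6% in labelled PlpSC and 38.3% to 47.8% in the others, while the cargo share runs from 31.8% in labelled PlpSC to 9.72% in labelled PaSC.

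**Figure D2:**
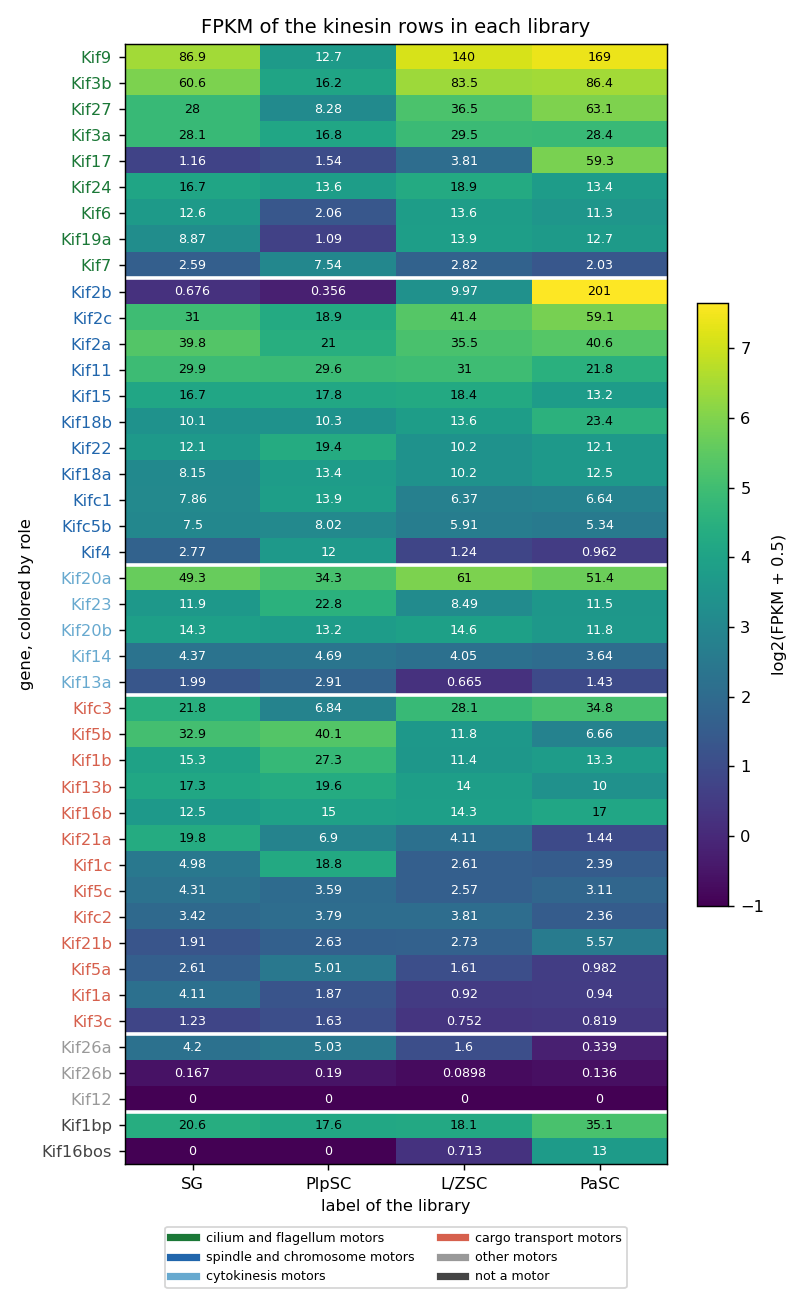
FPKM of each of the 43 rows (vertical axis, symbols colored by role) in each library (horizontal axis, by label, 1 library each), with the FPKM printed in the cell and the color giving log2(FPKM + 0.5). The brightest cells are Kif2b and Kif9 in labelled PaSC (201 and 169 FPKM), and Kif12 is at 0 throughout.

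Among the motors of cilium and flagellum, the heterotrimeric kinesin-2 comes first, since its Kif3a and Kif3b motor subunits and the Kifap3 adaptor pull the intraflagellar transport trains outward. Kif3b was at 60.6, 16.2, 83.5 and 86.4 FPKM. Kif3a was more even at 28.1, 16.8, 29.5 and 28.4 FPKM. The subunits were thus not in a fixed proportion: Kif3b was 2.16, 0.968, 2.83 and 3.04 times Kif3a within the 4 libraries. Kifap3 stood at 25.7, 18.5, 28.3 and 70.3 FPKM, so that Kif3a was 0.908 to 1.09 times Kifap3 in the first 3 libraries and 0.404 times in labelled PaSC.

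Kif9, a kinesin-9 motor of the sperm tail in the mouse, was the highest cilium motor wherever that group was abundant, at 86.9, 12.7, 140 and 169 FPKM. The value in labelled PlpSC stood apart below the other 3, and the ratio of labelled L/ZSC to labelled PlpSC was 10.99 as deposited and 25.3 with equal sums. Against Kif11, the main bipolar spindle motor, Kif9 was 2.91, 0.429, 4.50 and 7.76 times as high within the libraries. Kif6, its kinesin-9 relative in motile cilia, gave 12.6, 2.06, 13.6 and 11.3 FPKM, and Kif19a, which trims microtubules at the ciliary tip, gave 8.87, 1.09, 13.9 and 12.7. Kif27, a relative of the Hedgehog regulator Kif7 that is needed for motile cilia in the mouse, was at 28.0, 8.28, 36.5 and 63.1 FPKM. All of these were lowest in labelled PlpSC. Kif24, which restrains cilium assembly from the mother centriole, was at 16.7, 13.6, 18.9 and 13.4 FPKM, nearly flat as deposited, but with equal sums it was 3.20 times higher in labelled L/ZSC than in labelled PlpSC. Kif7 ran the other way, at 2.59, 7.54, 2.82 and 2.03 FPKM, and was highest in labelled PlpSC under all 3 scalings. Exons on the opposite strand overlap 20.3% of the exon bases of Kif7.

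Kif17 is a homodimeric kinesin-2 known in mouse round spermatids as a carrier of ACT, the coactivator of the cAMP response factor CREM. It was at 1.16, 1.54, 3.81 and 59.3 FPKM, so the level in labelled PaSC stood alone. The ratio of labelled PaSC to labelled L/ZSC was 15.6 as deposited and 20.2 with equal sums. Within the libraries it was 0.0412, 0.0914, 0.129 and 2.09 times Kif3a, so only in labelled PaSC did it exceed that subunit. Its gene lies on mouse chromosome 4 at 138262251 to 138301973 (RefSeq, GRCm38.p6, the assembly that mm10 names). Its promoter is shown with that of Kif9 because these are the cilium motors with the largest highest-to-lowest ratios (51.3 and 13.3). Each sequence holds the 250 bases before an annotated start, read 5′ to 3′ on the strand of the gene, with motif letters in capitals: TGACGTCA, the cAMP response element, in Kif17, and GTTGCCA, part of the X-box read by RFX factors, in Kif9, whose later annotated start is used.

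Kif17, chr4:138262001-138262250, plus strand: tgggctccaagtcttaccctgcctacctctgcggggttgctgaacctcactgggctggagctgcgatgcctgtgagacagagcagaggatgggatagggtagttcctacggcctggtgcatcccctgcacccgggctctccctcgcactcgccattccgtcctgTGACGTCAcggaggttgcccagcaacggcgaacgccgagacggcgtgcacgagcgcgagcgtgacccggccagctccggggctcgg

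Kif9, chr9:110476744-110476993, plus strand: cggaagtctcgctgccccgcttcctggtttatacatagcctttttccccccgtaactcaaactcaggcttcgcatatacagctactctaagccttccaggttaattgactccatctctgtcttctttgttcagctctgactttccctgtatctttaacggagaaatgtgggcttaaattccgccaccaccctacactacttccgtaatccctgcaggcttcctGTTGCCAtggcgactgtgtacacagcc

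The TGACGTCA of Kif17 begins 86 bases before the start, and the GTTGCCA of Kif9 27 bases before it. The window before the earlier Kif9 start of the promoter set, which overlaps the one shown, holds none of the motifs searched. The RefSeq span of Kif9 begins before either of these starts, at 110476738 of chromosome 9. The Kif9 window shown, from 110476744, thus lies within the annotated gene. A promoter entry was matched for 34 of the 43 genes, 38 starts in all, and both strands were searched. TGACGTCA was found before Kif17 and Kif5c, 2 of 38 starts, and before 1.55% of all 32851 promoters. GTTGCCA was found in 4 of the 38 (Kif9, Kif16b, Kif18a and Kif23) and in 3.66% of all. These matches are letters in a window and do not show a bound site.

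Taken by counts, the group of cilium and flagellum motors had 6 of 9 members lower by more than 1.5 times and 1 higher on going from labelled SG to PlpSC, and 7 higher and 1 lower in labelled L/ZSC than in labelled PlpSC. Over all 16652 genes past the filter these shares were 30.9% lower and 30.1% higher at the former step and 30.7% higher and 45.4% lower at the latter. The median log2 differences of the group were -1.70 and 2.07, against 0 and -0.29 over all genes. The 6 lower calls (Kif3a, Kif3b, Kif6, Kif9, Kif19a and Kif27) and the 7 higher calls (the same 6 and Kif17) were made in all 3 scalings, a rule that called 28.0% of all genes lower and 30.7% higher at these steps. The call of Kif7 was lost at both steps with equal sums. At the last step, from labelled L/ZSC to PaSC, Kif17 and Kif27 were higher in all 3 scalings, where 24.9% of all genes were, and the group median was -0.06 as deposited, 0.32 with equal sums and 0.11 with median ratios.

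The intraflagellar transport particle, the train that kinesin-2 pulls, was lowest in labelled PlpSC for 19 of its 21 genes, against 33.8% of all genes. On going from labelled SG to PlpSC as deposited, 15 were lower and 1 higher, and 18 were higher and none lower in labelled L/ZSC than in labelled PlpSC. Over all genes the shares were 30.9% lower and 30.1% higher, then 30.7% higher and 45.4% lower. The median log2 differences of -1.33 and 1.47 became -2.58 and 2.62 with equal sums. Ift140, the member with the highest level, was at 218, 27.4, 284 and 233 FPKM. Ift43 was at 136, 33.0, 186 and 224 FPKM, Ift172 at 140, 22.7, 175 and 170, and Ift122 at 129, 43.5, 167 and 148. All 6 pachytene markers had the same low library, with a summed level of 4636, 532, 7187 and 7816 FPKM, and their part in the result was not tested.

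**Figure D3:**
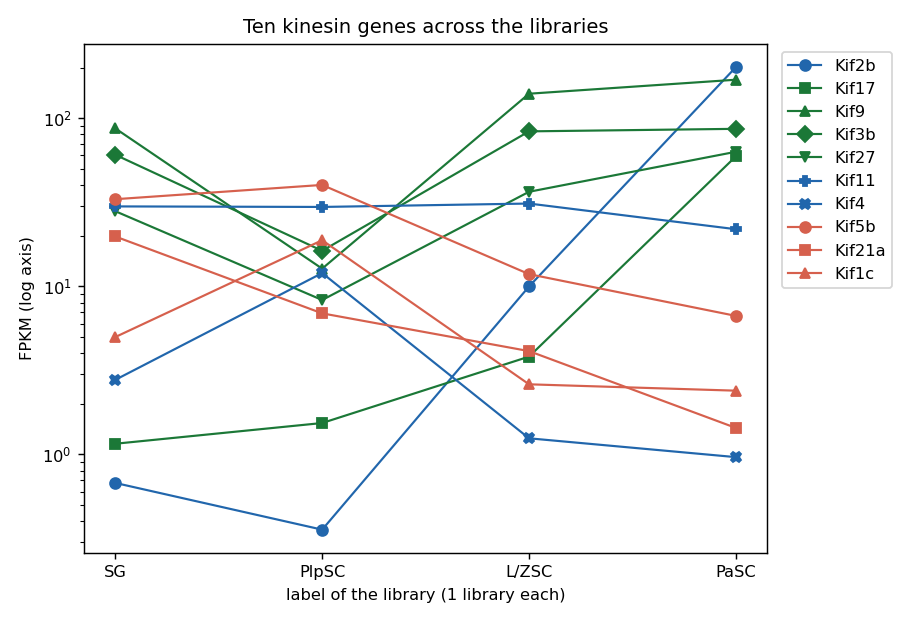
FPKM (vertical axis, log scale) of 10 kinesin genes in the 4 libraries (horizontal axis, by label, 1 library each), with color for role and lines joining the values of a gene. Kif9, Kif3b and Kif27 dip in labelled PlpSC where Kif4 and Kif1c peak, Kif2b and Kif17 climb to 201 and 59.3 FPKM in labelled PaSC, and Kif11 stays between 21.8 and 31.0.

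Kif2b had the widest range of any kinesin. It encodes a kinesin-13 microtubule depolymerase known from mitotic spindles of human cells for correcting faulty attachments of chromosomes. It was at 0.676, 0.356, 9.97 and 201 FPKM, a highest-to-lowest ratio of 565. In labelled PaSC it was the first of all kinesins and held 19.7% of the motor sum, against 0.11%, 0.07% and 1.39% elsewhere. The ratio of labelled PaSC to labelled L/ZSC was 20.2 as deposited and 26.3 with equal sums. Its relative Kif2c, which acts at centromeres, varied far less, at 31.0, 18.9, 41.4 and 59.1 FPKM, and so did Kif2a at 39.8, 21.0, 35.5 and 40.6. Within the libraries Kif2b was 0.0218, 0.0188, 0.241 and 3.41 times Kif2c, so the order of these 2 depolymerases was turned in labelled PaSC alone. Part of Kif2a (19.2% of its exon bases) overlaps exons of Dimt1 on the opposite strand, and whether strand was used in counting is not given in the sources used here.

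Kif2b is a single-exon gene with 1 annotated transcript on chromosome 11 at 91575286 to 91577555. It overlaps no other exon and shares no 50-base word with other annotated transcripts. Its promoter is shown because it has the largest ratio of the set, with TGACG, the shorter form of the cAMP response element that TGACGTCA also contains, and CCAAT, the box bound by NF-Y, in capitals.

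Kif2b, chr11:91577556-91577805, minus strand: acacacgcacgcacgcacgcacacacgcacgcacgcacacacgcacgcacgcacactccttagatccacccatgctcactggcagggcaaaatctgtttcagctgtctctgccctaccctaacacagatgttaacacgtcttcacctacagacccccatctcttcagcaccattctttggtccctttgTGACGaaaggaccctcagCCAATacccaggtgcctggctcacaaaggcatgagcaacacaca

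TGACG begins 62 bases and CCAAT 44 bases before the start. On either strand, TGACG was found in 16 of the 38 kinesin promoters and in 17.8% of all, and CCAAT in 18 of the 38 and in 33.8% of all. These counts and shares are by start, not by gene. The windows of Kif1b overlap and hold the same TGACG and CCAAT sites, which are thus counted more than once. TTTGAA, the core of the cell cycle element CHR, was found in 8 of 38 and 16% of all, and AACTGNC, a MYB motif, in 3 of 38 (Kif12, Kif24 and Kif26b) and 10.6% of all. Kif2b and Kif17 hold neither of these last motifs in the window.

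Kif16bos, like Kif2b and Kif17, was highest in labelled PaSC and next highest in labelled L/ZSC. It was listed at 0 in the first 2 libraries and at 0.713 and 12.97 FPKM in those labelled L/ZSC and PaSC. An exact 0 in such a table can be a failed estimate, so no ratio is given against these libraries. The neighbouring Kif16b, a motor of early endosomes, was at 12.5, 15.0, 14.3 and 17.0 FPKM, nearly flat as deposited, but with equal sums it was 2.20 times higher in labelled L/ZSC than in labelled PlpSC. The 6 spermatid markers, led by Tnp1 (1.44, 2.23, 29.5 and 4407 FPKM) and Prm1 (0.797, 0.665, 12.7 and 2937), stood in the same order from labelled PlpSC on. Summed Leydig cell markers were also highest in labelled PaSC (36.3, 786, 53.1 and 2168 FPKM, 4 of 6 highest there). The part of either cell type in the levels of Kif2b, Kif17 and Kif16bos was not tested.

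Apart from Kif4, the other spindle and chromosome motors stayed closer together as deposited. Kif11, which slides antiparallel microtubules apart, was at 29.9, 29.6, 31.0 and 21.8 FPKM, and Kif15, which works beside it, at 16.7, 17.8, 18.4 and 13.2. Kif18a, a kinesin-8 that damps chromosome movement, was at 8.15, 13.4, 10.2 and 12.5 FPKM. As deposited, neighbouring libraries differ by factors under 1.5 for these genes, except Kif18a between labelled SG and labelled PlpSC. With equal sums, Kif11 was 2.41 and Kif15 2.38 times higher in labelled L/ZSC than in labelled PlpSC. Kif18b, the relative of Kif18a, was at 10.1, 10.3, 13.6 and 23.4 FPKM. It was higher in labelled PaSC than in labelled L/ZSC under all 3 scalings. Kif22, a chromokinesin that pushes chromosome arms, was at 12.1, 19.4, 10.2 and 12.1 FPKM. Kifc1, the minus-end motor that focuses spindle poles, was at 7.86, 13.9, 6.37 and 6.64, and Kifc5b at 7.50, 8.02, 5.91 and 5.34. These last 2 genes are uncertain as separate values, since 47.6% of the 50-base words of Kifc1 also occur in other annotated transcripts, nearly all of them of Kifc5b.

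Kif4 was highest in labelled PlpSC, where 6 of the 9 cilium motors were lowest and Kif7 was likewise highest. It is a chromokinesin that sets the length of the central spindle and the only X-linked member, at 100626065 to 100727271 of chromosome X. It was at 2.77, 12.0, 1.24 and 0.962 FPKM, so labelled PlpSC stood apart above the rest. It was 4.32 times higher in labelled PlpSC than in labelled SG as deposited and 1.71 times with equal sums. No other kinesin was over 1.5 times higher at this step in all 3 scalings, a rule that called 8.62% of all genes. Within the libraries Kif4 was 0.0929, 0.404, 0.0401 and 0.0441 times Kif11. Macrophage, fibroblast and peritubular markers were highest in the same library, as were 5 of 6 meiotic prophase markers (summed level 433, 1321, 384 and 270.1 FPKM), and their part in the level of Kif4 was not tested.

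The processed pseudogene Kif4-ps on chromosome 12, which falls outside the naming rule and was chosen after its values were seen, showed the reverse. It was at 15.9, 1.76, 21.6 and 15.4 FPKM. Kif4 was therefore 6.79 times its pseudogene in labelled PlpSC and 0.174, 0.0577 and 0.0624 times in labelled SG, L/ZSC and PaSC. The copies can be told apart by sequence, since 0.304% of the 50-base words of Kif4 occur in Kif4-ps. Exons of Pdzd11 on the opposite strand overlap 15.1% of the exon bases of Kif4. The Kif4 promoter is shown because of this gene's level in labelled PlpSC, and the capitals mark CCAAT and TGACG or their reverse complements ATTGG and CGTCA.

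Kif4, chrX:100625815-100626064, plus strand: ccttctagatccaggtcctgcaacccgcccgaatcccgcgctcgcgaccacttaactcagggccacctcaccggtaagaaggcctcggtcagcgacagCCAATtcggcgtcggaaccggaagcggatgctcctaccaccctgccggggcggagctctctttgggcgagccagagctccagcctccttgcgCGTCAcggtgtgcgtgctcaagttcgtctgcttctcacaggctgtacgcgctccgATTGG

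The CCAAT boxes begin 152 and 5 bases before the start, the latter on the minus strand, and CGTCA 60 bases before it. As a group, 4 of 11 spindle and chromosome motors were higher and 3 lower on going from labelled SG to PlpSC, beside 30.1% and 30.9% of all genes. In labelled L/ZSC against labelled PlpSC, 3 were higher and 3 lower, beside 30.7% and 45.4%. In all 3 scalings these counts were 1 (Kif4) and 3 (Kif2a, Kif2b and Kif2c), then 3 (the same kinesin-13 genes) and 1 (Kif4), beside 8.62% and 28.0%, then 30.7% and 23.7% of all genes. Labelled PaSC against labelled L/ZSC gave 2 higher (Kif2b and Kif18b) and none lower, where 24.9% of all genes were higher and 24.6% lower.

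Cytokinesis motors were led by Kif20a, which carries the chromosomal passenger complex to the midzone, at 49.3, 34.3, 61.0 and 51.4 FPKM. Exons of Cdc23 on the opposite strand overlap 29.3% of its exon bases. Kif23, the motor subunit of centralspindlin, was at 11.9, 22.8, 8.49 and 11.5 FPKM, and relative to its partner Racgap1 it was 0.259, 0.591, 0.224 and 0.400 times as high. The pair was closest to equal in labelled PlpSC. Kif20b was the steadiest kinesin at 14.3, 13.2, 14.6 and 11.8 FPKM as deposited, and Kif14, a midbody motor, was at 4.37, 4.69, 4.05 and 3.64. Kif13a, an endosome motor also placed in this group for its role in abscission of human cells, was low at 1.99, 2.91, 0.665 and 1.43 FPKM. In all 3 scalings Kif20a was higher and Kif13a lower in labelled L/ZSC than in labelled PlpSC, and Kif13a was higher in labelled PaSC than in labelled L/ZSC.

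The 24 listed partner genes of spindle and cytokinesis lie outside the naming rule. Among them Cenpe, at 9.24, 10.2, 8.58 and 12.6 FPKM, is a kinesin gene of another name. On going from labelled SG to PlpSC, 5 of the 24 were higher and 8 lower. In labelled L/ZSC against labelled PlpSC, 9 were higher and 6 lower, and the last step gave 2 and 2. The shares of all genes were 30.1% and 30.9%, 30.7% and 45.4%, and 24.9% and 24.6%. In all 3 scalings the counts were 0 and 6, 9 and 0, and 2 and 0, beside 8.62% and 28.0%, 30.7% and 23.7%, and 24.9% and 11.4%. The kinase gene Aurka was at 125, 39.2, 181 and 199 FPKM and the topoisomerase gene Top2a at 79.6, 162, 77.9 and 63.7. The cyclin gene Ccnb2 was at 88.4, 43.7, 115 and 147, and Prc1, which bundles midzone microtubules, at 105, 41.2, 135 and 93.2. Labelled PlpSC thus held the lowest value of Aurka, Ccnb2 and Prc1 and, as deposited, the highest of Top2a, which with equal sums was highest in labelled SG.

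Cargo motors were lowest as a share of the motor sum in labelled PaSC. Kif5b, the ubiquitous heavy chain of conventional kinesin, was at 32.9, 40.1, 11.8 and 6.66 FPKM and held 8.34% of the motor sum in labelled PlpSC against 0.65% in labelled PaSC. Inside the libraries Kif3b was 1.84, 0.406, 7.07 and 12.97 times Kif5b. The neuronal heavy chains Kif5a and Kif5c were low, at 2.61, 5.01, 1.61 and 0.982 FPKM and at 4.31, 3.59, 2.57 and 3.11. Of the light chains that bind these heavy chains, Klc2 was the highest at 66.2, 41.0, 64.0 and 46.3 FPKM, and Kif5b was 0.498, 0.978, 0.184 and 0.144 times Klc2. Klc1 was at 9.94, 18.4, 7.34 and 4.35 FPKM, Klc4 at 21.5, 23.4, 17.9 and 25.0, and Klc3, known in rodent sperm tails, at 3.11, 6.49, 2.18 and 8.88. Klc3 was thus highest where Klc1 and Kif5b were lowest.

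In the kinesin-3 family of vesicle motors, Kif1c was at 4.98, 18.8, 2.61 and 2.39 FPKM and Kif1b at 15.3, 27.3, 11.4 and 13.3. Both peaked in labelled PlpSC as deposited, but with equal sums Kif1b was highest in labelled PaSC. Kif1a, the carrier of synaptic vesicle precursors in neurons, was at 4.11, 1.87, 0.920 and 0.940 FPKM, and Kif13b was at 17.3, 19.6, 14.05 and 10.01. The macrophage and the fibroblast and peritubular markers were high in the same library as Kif1c, and their part in its level was not tested. Kif1bp, whose product binds and inhibits several kinesins, was at 20.6, 17.6, 18.1 and 35.1 FPKM and was higher in labelled PaSC than in labelled L/ZSC under all 3 scalings.

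Kif21a and Kif26a were the members with the largest ratios among those lowest in labelled PaSC. Kif21a, a kinesin-4 that slows microtubule growth, was at 19.8, 6.90, 4.11 and 1.44 FPKM, a ratio of 13.8 between labelled SG and labelled PaSC. Its relative Kif21b went the other way at 1.91, 2.63, 2.73 and 5.57. Kif26a, an atypical kinesin without motor activity that is still counted among the motor genes here, was at 4.20, 5.03, 1.60 and 0.339 FPKM. Kif21a and Kif26a were the 2 kinesins lower in labelled PaSC than in labelled L/ZSC in all 3 scalings, a rule that called 11.4% of all genes. The Sertoli markers, led by Clu (1014, 506, 258 and 87.6 FPKM) and Cldn11 (189, 93.9, 58.3 and 5.15), stood as deposited in the same order of libraries as Kif21a, and their part in these levels was not tested.

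The minus-end motor Kifc3, which acts at junctions of human epithelial cells, did not follow the other cargo motors. It was at 21.8, 6.84, 28.1 and 34.8 FPKM, lowest in labelled PlpSC like 6 of the 9 cilium motors. Exons on the opposite strand overlap 27.5% of the exon bases of Kifc3. Kifc2 was at 3.42, 3.79, 3.81 and 2.36 FPKM. Kif3c, an accessory kinesin-2 subunit, stayed at or under 1.63 FPKM, and 40.7% of its exon bases are overlapped on the opposite strand. Of the 13 cargo motors, 3 were higher and 3 lower on going from labelled SG to PlpSC, 1 was higher and 7 lower in labelled L/ZSC than in labelled PlpSC, and 1 was higher and 4 lower in labelled PaSC than in labelled L/ZSC. The shares of all genes at these steps were 30.1% and 30.9%, 30.7% and 45.4%, and 24.9% and 24.6%. Of the 7 lower, 1 (Kif1c) was lower in all 3 scalings, and the group median at that step was -0.68 as deposited and 0.41 with equal sums, so its direction rests on the scaling.

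Light chains and cargo adaptors, 16 genes found with Kif1bp among them, had 5 higher and 4 lower at the step from labelled SG to labelled PlpSC, 4 and 7 at the next and 4 and 4 at the last, where all genes gave 30.1% and 30.9%, 30.7% and 45.4%, and 24.9% and 24.6%. In all 3 scalings the counts were 1 and 3, 4 and 2, and 4 and 2, where all genes gave 8.62% and 28.0%, 30.7% and 23.7%, and 24.9% and 11.4%. Mapk8ip2, a scaffold that links kinesin-1 to its cargo, was at 52.3, 6.97, 78.7 and 83.4 FPKM. The minus-end partner of the kinesins, cytoplasmic dynein with dynactin, had 3 of 22 genes higher and 10 lower on going from labelled SG to PlpSC, 10 and 6 at the next step, and 3 and 3 at the last, against the same shares of all genes as deposited. In all 3 scalings the counts were 0 and 9, 10 and 2, and 3 and 0, against 8.62% and 28.0%, 30.7% and 23.7%, and 24.9% and 11.4%. The dynein light chain gene Dynlt1b was at 380, 123, 605 and 630 FPKM and the dynactin gene Dctn2 at 249, 76.3, 342 and 360. Actr1a, the actin-related filament of dynactin, was at 216, 79.0, 294 and 271 FPKM. These 3 genes were lowest in labelled PlpSC. The dynein light chain gene Dynll1 was not, at 144.9, 144.9, 141.9 and 187 FPKM as deposited.

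Over all 41 rows that passed, 9 were higher and 12 lower on going from labelled SG to PlpSC, beside 30.1% and 30.9% of all genes. At the next step, to labelled L/ZSC, 13 were higher and 14 lower, beside 30.7% and 45.4%, and at the last, to labelled PaSC, 8 were higher and 5 lower, beside 24.9% and 24.6%. For the set as a whole these counts lay near or below the background shares. In all 3 scalings the counts were 1 higher and 12 lower, 13 and 3, and 8 and 2, beside 8.62% and 28.0%, 30.7% and 23.7%, and 24.9% and 11.4%. The median log2 differences were 0.09, 0.01 and 0.05, against 0, -0.29 and -0.10 over all genes, and with equal sums -1.12, 1.04 and 0.35, against -1.04, 0.57 and 0.20. The members nearest the threshold at the first step were Kif22 at 1.60 times higher, just past it, and Kif13a at 1.46, just short of it.

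By library, 3 of the 41 rows were highest in labelled SG, and 16, 9 and 13 in those labelled PlpSC, L/ZSC and PaSC, beside 16.3%, 41.3%, 15.1% and 27.4% of all genes. These counts rest on the scaling, since with equal sums they were 13, 3, 3 and 22. The highest value was a median 2.54 times the lowest over the 40 kinesin rows listed above 0 in every library, against 4.26 over 15688 genes. Kif2b (565), Kif17 (51.3), Kif26a (14.8), Kif21a (13.8), Kif9 (13.3), Kif19a (12.8) and Kif4 (12.5) were the members above 10, and Kif20b (1.24), Kif14 (1.29), Kif16b (1.36), Kif15 (1.39), Kif24 (1.41) and Kif11 (1.42) the steadiest as deposited.

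Read counts were not analysed, but the low end of the table gives a rough idea of the depth. Among genes with 1 transcript, the most common low value, taken as a single fragment, was worth about 0.0477 to 0.0579 FPKM on a transcript of 1 kilobase, an estimate chosen after seeing the data to which 39.6% to 47.8% of the low genes fitted. On that basis the values of Kif2b would rest on about 29.4, 13.8, 468 and 9197 fragments. Kif16bos would rest on 7.40 and 131 in those labelled L/ZSC and PaSC, and Kif26a on 47.8 in labelled PaSC.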

How the data were processed

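Total RNA of 4 libraries, depleted of ribosomal RNA and made into directional libraries, was sequenced on a HiSeq instrument. Per the study's methods and the submitters' processing notes, TopHat with default parameters placed the reads on mm10, and the authors obtained FPKM of RefSeq genes from Cuffdiff. What is not given in the sources used here: program versions, any scaling between libraries and the use of strand. The deposited FPKM values were used as they stand, and 0 columns of per-sample values were left unused. The total count of reads per library was not analysed.

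Rows were chosen by symbol, and 42 of 43 matched RefSeq (GRCm38.p6) by symbol and 1 by an older symbol. Genes that reached 0.5 FPKM in any library were kept, and ratios over 1.5 were called. Differences were taken as log2(FPKM + 0.5), which understates changes of low genes. A gene listed at 0 was called when the library compared with it reached 0.5 FPKM. The members, role groups, partner and marker lists were chosen with earlier results of these data known. The text may name every member, the 4 highest genes of each partner list with obligate partners, and the 2 highest of each marker list. Cenpe and Kif4-ps were named besides. Exon overlaps and shared 50-base words came from GENCODE M21 (141767 transcripts). Promoters came from RefSeq (GRCm38.p6), and no entry was matched for Kif1bp, Kif5a, Kif5b, Kif13b, Kif19a, Kif20a, Kif21b, Kifc2 and Kifc3. The call procedure was tested on simulated data. Python 3.11.15, pandas 2.3.3, numpy 2.4.6 and matplotlib 3.10.9 were used.

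Alternatives were same-sum and median-ratio scaling, no filter and filters of 1 and 5 FPKM, a fold threshold of 2, pseudocounts of 0.1 and 1, maxima without the library labelled SG and, chosen after seeing the data, another library in place of a doubted one.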

Additional observations from a re-analysis of the deposited data

How the results depend on the processing

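No paired analysis was possible because there was 1 library per stage, and for the same reason no replicate could be left out. Of 79 alternative values over 13 results, 57 kept the direction and stayed within 1.5 times a count or 0.1 of a median, 20 moved further and 2 reversed. Most of the movement came from scaling each library to the same sum. The counts of kinesin genes then became 1 higher and 33 lower at the first step (labelled SG to PlpSC), 27 and 3 at the next (to L/ZSC), and 17 and 2 at the last (to PaSC). The medians of log2 differences became -1.12, which reversed the 0.09 as deposited, then 1.04 and 0.35, and the maxima became 13, 3, 3 and 22 in the order of the labels. With median ratios, 3 genes were lower at the last step, and the medians of the first and last steps were 0.20 and 0.18. A fold threshold of 2 left 3 higher at the first step and 5 higher and 2 lower at the last. With labelled PaSC in place of labelled SG, 17 were higher in labelled PlpSC, and with labelled SG in place of labelled L/ZSC, 9 were lower in labelled PaSC. Both were chosen after seeing the data. Without the filter, the median from labelled PlpSC to labelled L/ZSC turned from 0.01 to -0.028 over 42 genes. The lack of replicates, the doubt over the labels and the unmeasured depth limit every comparison.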
